A study of Rattus norvegicus with 18 samples.

Results

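Genes that cells switch on to divide their chromosomes and then themselves were followed in a rat kidney cell line during exposure to the fungicide chlorothalonil. The 33 mitosis genes were taken by symbol: cyclins and Cdk1, spindle and kinetochore proteins, the spindle checkpoint, the chromosomal passenger complex, the anaphase promoting complex and securin, cytokinesis proteins, Mki67 and Top2a, and 3 others. All 33 were found in the array annotation, all 33 passed the filter on low values (log2 above 4 in at least 3 of 18 arrays), and they were tested among 9149 genes. Where a gene had several probe sets, the one with the highest mean over the 18 arrays stood for it.

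The cells were NRK-52E, an established line from rat kidney of the Osborne-Mendel strain, labelled as proximal tubule epithelium and grown to confluence before exposure. Chlorothalonil, a chlorinated nitrile fungicide that reacts with cellular thiols, was given at 1.1 µM in 0.1% DMSO, a dose named after its 10% inhibitory effect at 72 h, and control cells received 0.1% DMSO alone. RNA was taken after 6, 24 and 72 h from 3 separate studies per time, which gave 6 groups of 3 Affymetrix arrays. Values are log2 signals after GCRMA, a background correction and normalization between arrays, after which the array medians still ran from 3.93 to 4.22, so every change is relative to the RNA of the same array. No group was measured before exposure or while cells were still sparse, and 1 cell line was used, so a change from 6 h onwards is a change in confluent cells of this line.

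Of the proximal tubule markers, Gatm was above log2 4 in all 18 arrays and Ggt1 in 15, while Lrp2, Cubn, Slc34a1, Slc5a2 and Hnf4a were below it in every array, as were Cdh1, Epcam, Krt18, Pax2 and Pax8. Krt8 was high throughout (12.70 to 14.45). The podocyte markers Wt1 and Synpo and the fibroblast marker Col1a1 were above log2 4 in all 18 arrays, Col1a2 in 13 and Pdgfrb in 2. The other fibroblast markers Pdgfra, Dcn, Lum and Thy1 and the podocyte marker Nphs1 were below log2 4 in every array. The leukocyte markers Ptprc, Itgam, Lyz2 and Csf1r, the endothelial markers Pecam1, Kdr and Vwf and all 5 distal nephron markers stayed below it. Cd74, another leukocyte marker, was above it in 1 array (4.05), and Tek, another endothelial marker, in 5 (up to 5.73). The mean over each whole list was taken in every array, and its range is given over treated and then over DMSO arrays. It spanned 3.14 to 3.43 and 3.16 to 3.40 for proximal tubule, 3.62 to 3.92 and 3.59 to 3.83 for epithelium and renal lineage, and 2.74 to 3.78 and 2.73 to 4.40 for fibroblast. It spanned 4.89 to 5.92 and 4.91 to 6.10 for podocyte, 2.35 to 2.73 and 2.35 to 2.59 for leukocyte, 2.30 to 2.70 and 2.37 to 3.07 for endothelium, and 2.19 to 2.30 and 2.22 to 2.36 for distal nephron. Single markers moved with treatment at 72 h, when Gatm was higher by 2.26 and Ggt1 by 2.21 (log2), with Ggt1 below log2 4 in the 3 DMSO arrays, and Aqp1 was above log2 4 in the 3 DMSO arrays of that time and in no other. The fibroblast markers Col1a1 (-1.28) and Col1a2 (-1.79) were lower in treated cells at 72 h, and both rose in DMSO from 24 to 72 h, by 2.04 and 4.69. Tek was lower in treated cells at 72 h (-1.66, with 1 treated and 3 DMSO arrays above log2 4). It rose by 1.87 in DMSO from 24 to 72 h. The podocyte markers changed with treatment at 72 h by 0.43 (Wt1) and -0.43 (Synpo). Some markers had also changed with treatment earlier. Ggt1 was higher by 0.42 at 6 h and 1.88 at 24 h, Krt8 was higher at 24 h (0.81), and Gatm was lower at 24 h (-0.59). Col1a2 changed by 1.17 at 6 h and by -1.99 at 24 h, when no treated array was above log2 4. Col1a1 was lower at 24 h (-0.42) and Synpo at 6 h (-0.54). The part of these markers in the results was not tested. Replicate arrays of a group correlated at 0.992 to 0.998 across genes, which are not independent replicates. The poly-A control probe sets, which report bacterial RNA normally added to each sample before labelling, were brighter in treated than in DMSO arrays by 0.62, 1.07 and 0.67 (log2) at 6, 24 and 72 h, with 1 DMSO array at 24 h at 8.97 against 10.1 and 10.3 in the other two. The gap between the 3' and 5' probe sets of actin, a sign of RNA quality, was 0.90 to 1.12 at 6 h and 1.51 to 2.02 at 72 h, with treated and DMSO arrays overlapping. At 24 h it was 1.03 to 1.16 in treated and 1.23 to 1.32 in DMSO arrays, which did not overlap, and its part in the 24 h results was not tested.

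Mitosis starts when Cdk1 joins B-type cyclins, and it ends when the anaphase promoting complex destroys them. In between, kinetochores bind spindle microtubules, the checkpoint holds the complex back until all chromosomes are attached, and the central spindle then places the cleavage furrow. Most of these genes are transcribed late in the cell cycle, under factors that include Foxm1 and Mybl2, and are silenced in resting cells by the DREAM complex, which contains Rbl2 or Rbl1. The DREAM complex reaches many of their promoters through the cell cycle genes homology region, a TTTGAA or TTCGAA element just upstream of the start, often with CCAAT boxes that bind NF-Y.

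Because the members moved together in these cells, their promoters are shown for the features they share. Promoters from RefSeq (GRCr8, 250 bases before to 50 after the first listed start of each gene) were available for 27 of the 33 genes, not for Ccna2, Aurkb, Ube2c, Racgap1, Pbk and Pimreg. TTTGAA, on either strand, was present in 19 of the 27 (70.4%), against 18.1% of the 27457 promoters in the table. CCAAT, on either strand, was present in 22 of 27 (81.5%), against 37.7%, and both motifs together in 17 of 27 (63.0%), against 7.25%. TTCGAA, on either strand, was found in 2 of 27 (7.41%, against 1.77%). Matches of the 3 motifs can share end letters. In every set they were counted anywhere in the window, also across or after the start. The TTTGAA matches of Plk1, Nusap1, Cenpf, Bub1b, Ttk, Mad2l1 and Depdc1b did not lie wholly upstream of the start. Of 42 genes of DNA replication, which are switched on earlier in the cell cycle, 3 (7.14%) held TTTGAA, 23 (54.8%) held CCAAT and 3 (7.14%) held TTCGAA. Of 69 promoters of a wider list of mitosis genes, 29 (42.0%) held TTTGAA, 39 (56.5%) CCAAT, 19 (27.5%) both and 9 (13.0%) TTCGAA. The 150 bases before the start are shown for 1 gene in each of the 5 groups that had a TTTGAA wholly upstream of the start, the gene whose match was nearest to it, and for Ccnb1, which had none. Capitals mark TTTGAA, which reads TTCAAA from the opposite strand, and CCAAT, which reads ATTGG from the opposite strand, and each sequence reads 5' to 3' in the direction of the gene.
Cdk1 (chr20:19265143-19265292, plus strand): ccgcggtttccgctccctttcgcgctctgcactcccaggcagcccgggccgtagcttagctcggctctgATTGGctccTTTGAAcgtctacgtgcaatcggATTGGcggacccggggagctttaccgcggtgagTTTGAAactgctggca
Birc5 (chr10:103571996-103572145, plus strand): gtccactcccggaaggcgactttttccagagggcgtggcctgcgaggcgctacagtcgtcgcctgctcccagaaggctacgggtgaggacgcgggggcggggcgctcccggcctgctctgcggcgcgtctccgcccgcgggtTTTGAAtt
Pttg1 (chr10:28406327-28406476, minus strand): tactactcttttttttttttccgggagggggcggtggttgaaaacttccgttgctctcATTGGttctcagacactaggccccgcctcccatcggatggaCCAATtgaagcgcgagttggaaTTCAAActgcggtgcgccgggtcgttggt
Prc1 (chr1:143659331-143659480, plus strand): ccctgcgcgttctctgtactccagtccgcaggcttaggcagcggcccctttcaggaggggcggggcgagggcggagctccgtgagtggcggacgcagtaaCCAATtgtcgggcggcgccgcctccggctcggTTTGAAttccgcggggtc
Top2a (chr10:84473094-84473243, minus strand): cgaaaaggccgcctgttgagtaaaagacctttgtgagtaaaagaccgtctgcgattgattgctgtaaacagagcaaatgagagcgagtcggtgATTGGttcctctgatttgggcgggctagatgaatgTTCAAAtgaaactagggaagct
Ccnb1 (chr2:33655226-33655375, minus strand): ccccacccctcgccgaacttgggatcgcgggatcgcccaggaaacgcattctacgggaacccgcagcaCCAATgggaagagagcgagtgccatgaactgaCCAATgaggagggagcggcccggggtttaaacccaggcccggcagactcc
The first base of the TTTGAA match lay 8 bases before the annotated start in Birc5, 16 and 72 in Cdk1, 18 in Prc1, 22 in Top2a and 29 in Pttg1. Ccnb1 had CCAAT boxes 50 and 82 bases before its start. A match describes letters in this window and no more, and factor binding was not measured.

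Relative to DMSO cells of the same age, the mitosis genes were lower at 6 and 24 h of chlorothalonil and higher at 72 h. A gene was called at an adjusted p below 0.05 (limma, Benjamini-Hochberg over 9149 genes). At 6 h, 30 of 33 were lower and 1 was higher, when 31.8% of all genes were called lower and 27.8% higher. At 24 h, 26 were lower and 2 higher, against 31.1% lower and 39.1% higher among all genes. At 72 h none was lower and 31 were higher, against 27.0% lower and 37.2% higher. The median log2 change of the 33 was -0.75, -0.53 and 0.86 at the 3 times, beside -0.0097, 0.057 and 0.074 over all genes. In RNA from whole wells, fewer cells in mitosis and less of each RNA per cell cannot be told apart.

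Counted by the arrays alone, all 3 treated values lay below all 3 DMSO values for 30 members at 6 h (34.7% of all genes) and 24 at 24 h (32.5%), and above them for 32 at 72 h (40.1%). The sequence lower, lower, higher over the 3 times was met by 22 of 33, against 2.81% of all genes. Aurka, Aurkb, Kif23 and Depdc1b were lower at 6 h and higher at 72 h but not called at 24 h. Mki67 and Cdca3 were lower at 6 and 24 h and not called at 72 h. Mad2l1 and Cdca8 were lower at 6 h and higher at both later times, and Cdkn3 was higher, lower and higher. Ube2c was called from 24 h on, and Birc5 at 72 h alone.

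**Figure D1:**
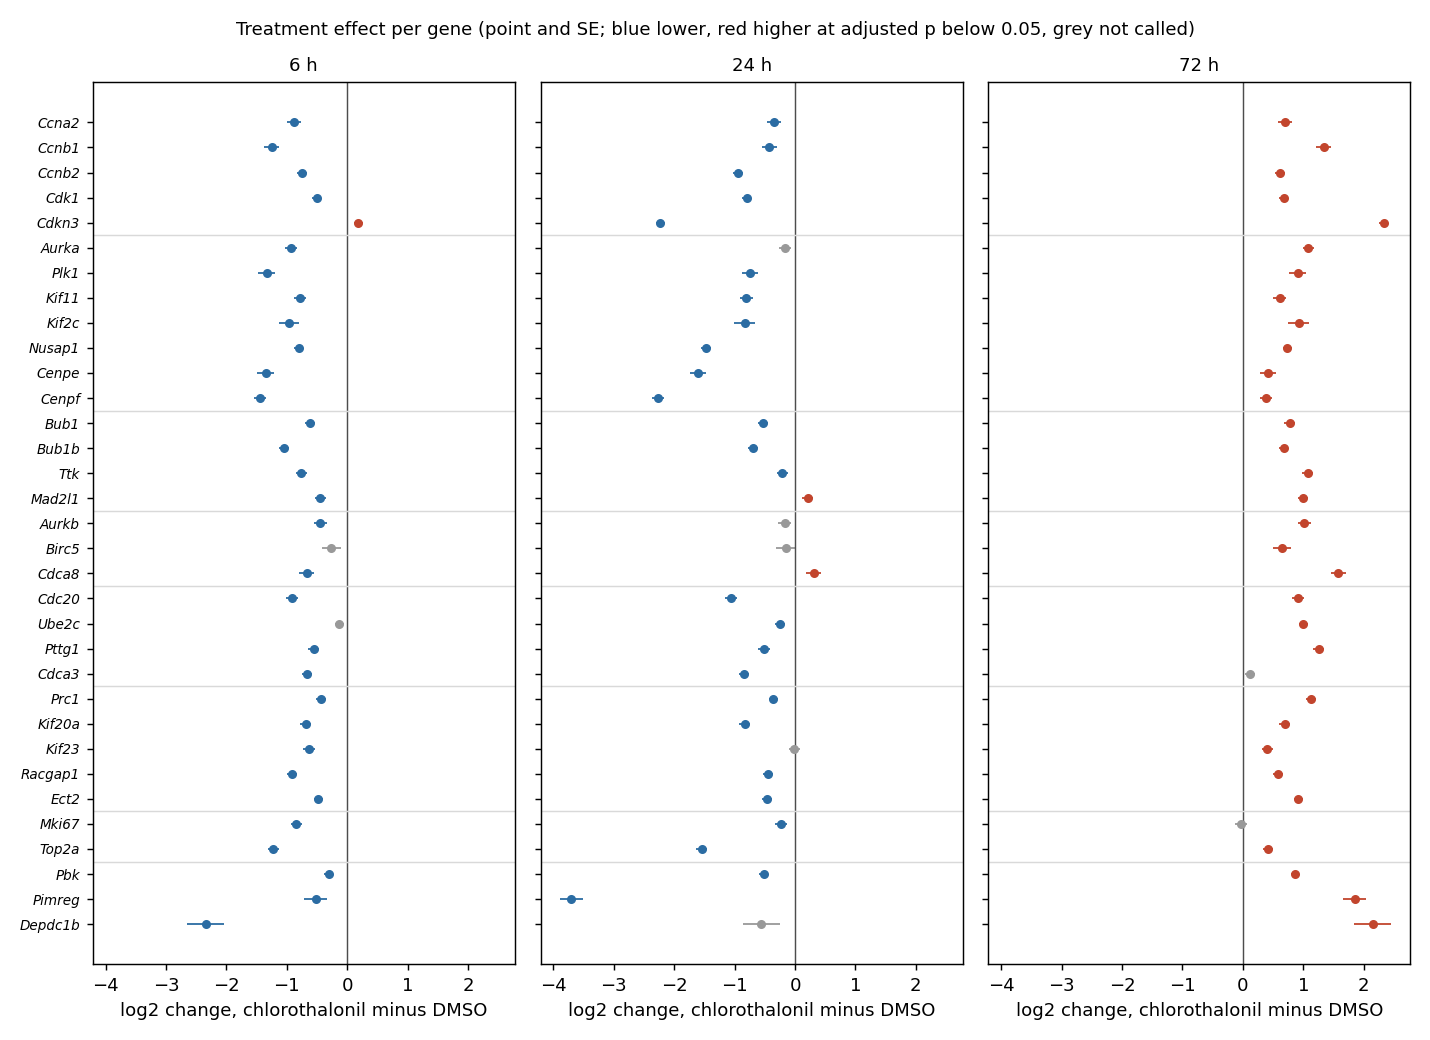
Treatment change of each of the 33 mitosis genes (log2, chlorothalonil minus DMSO at the same time, point and SE, 3 arrays against 3), with genes grouped by sub-function between the grey lines. Blue points lie left of 0 for 30 genes at 6 h and 26 at 24 h, and red points lie right of 0 for 31 genes at 72 h.

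The controls did not stand still. From 6 to 24 h in DMSO, 29 members fell and 2 rose (all genes 40.0% lower, 32.9% higher, median of the members -0.79). From 24 to 72 h, 19 fell, of which 17 had also fallen before, and 2 rose (24.3% and 36.3% of all genes, median -0.30). Cdkn3 and Pimreg rose and then fell. In chlorothalonil, 30 fell from 6 to 24 h and none rose (24.9% and 34.6%, median -0.63), and 32 rose from 24 to 72 h with none falling (33.3% and 39.5%, median 1.19). These counts depend on the scaling. With each array scaled on its poly-A controls, 12 fell and 2 rose from 6 to 24 h in DMSO (12.2% and 21% of all genes) and 7 fell from 24 to 72 h (10.3% of all genes), while in chlorothalonil 17 fell from 6 to 24 h (10.7%) and 30 rose from 24 to 72 h (23.3%). Scaled so but without the DMSO array at 24 h with dim poly-A controls, the same 4 steps gave 29 falling and 2 rising, 4 falling, 32 falling and 32 rising. Shares of all genes by direction are not given for that setting, here or below, so its counts are not set against them. The treatment and time comparisons share the same arrays.

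The change in the treatment effect was itself tested. Between 24 and 72 h the effect moved upwards in 32 of 33 members (29.8% of all genes moved down and 27.9% up), by a median of 1.42, and the exception was Mki67 at 0.19 (SE 0.14, adjusted p = 0.239). Between 6 and 24 h it moved down in 6 members and up in 12 (23.4% and 39.6% of all genes). That last split rests on the scaling of the arrays. With each array centred on its median it was 12 down and 10 up. With scaling on the poly-A controls it was 3 down and 1 up (13.5% and 2.83% of all genes). The 6 were Cdk1, Cdkn3, Nusap1, Cenpf, Top2a and Pimreg. Of these, Cdkn3 was higher at 6 h and lower at 24 h, and the other 5 were lower at both times and by more at 24 h in the values as deposited.

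**Figure D2:**
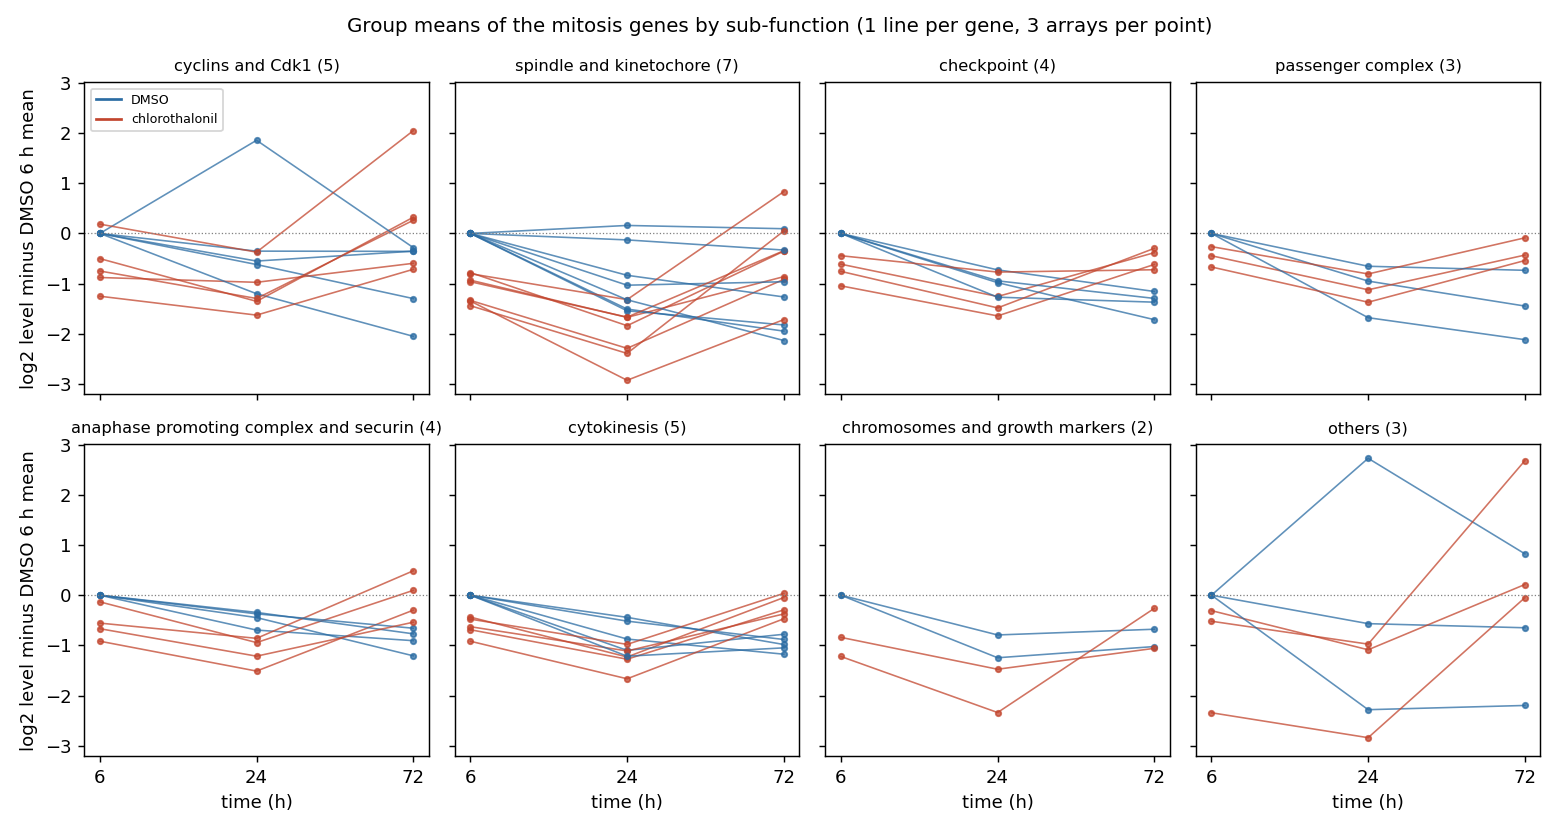
Group mean of each mitosis gene minus its own mean in DMSO at 6 h (log2), 1 line per gene and treatment over 6, 24 and 72 h (equally spaced), in 8 panels by sub-function. Most blue DMSO lines fall to 24 h, except Cdkn3 and Pimreg, which rise by 1.86 and 2.73, and Nusap1, which is higher by 0.16 and not called, and the red chlorothalonil lines fall to 24 h and then climb.

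Over the 6 groups, the lowest mean was that of chlorothalonil at 24 h in 27 members (10.4% of all genes) and of DMSO at 72 h in the other 6, Ccna2, Ccnb1, Aurka, Mad2l1, Aurkb and Cdca8. The highest mean was that of DMSO at 6 h in 23 (16.2% of all genes), of chlorothalonil at 72 h in 9 and of DMSO at 24 h in 1, Pimreg. Chlorothalonil at 24 h set against DMSO at 6 h was lower in all 33 (29.0% of all genes lower, 32.9% higher), with a median of -1.32. Chlorothalonil at 72 h set against DMSO at 24 h was higher in 25 and lower in 1, Cenpe (43.7% higher and 20.8% lower among all genes). With poly-A scaling the split was 1 higher and 6 lower, when 2.35% of all genes were called higher and 51% lower.

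The scale of the arrays decides how the 72 h rise reads. When each array was scaled so that its poly-A controls were equal, 31 members were lower at 6 h, all 33 at 24 h, and 4 were higher at 72 h, namely Cdkn3, Cdca8, Pimreg and Depdc1b. Of all genes, 39.2%, 68.5% and 37.9% were called lower on that scale at 6, 24 and 72 h, and 2.54%, 2.8% and 3.41% higher. On that scale the median of all genes shifted to -0.62, -1.02 and -0.60, and the members' median was -1.36, -1.60 and 0.19, so the members stayed below the bulk of genes at 6 and 24 h and above it at 72 h. Without the DMSO array at 24 h whose poly-A controls read 8.97, an alternative chosen after seeing the data, 7 members were higher and 2 lower at 72 h, and the median at 24 h was -1.19. Whether the controls were added in equal amount was not tested.

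**Figure D3:**
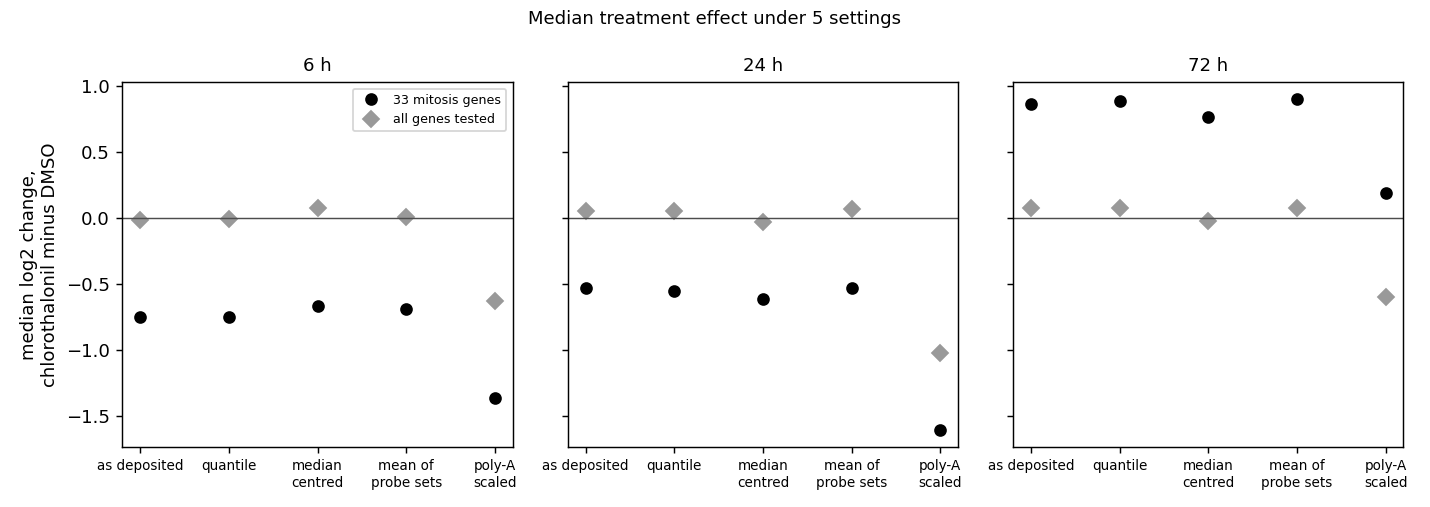
Median log2 change (chlorothalonil minus DMSO) of the 33 mitosis genes (black) and of all 9149 genes (grey diamonds) at 6, 24 and 72 h, with values as deposited and under 4 alternatives. The members lie below all genes at 6 and 24 h and above them at 72 h under each, and with poly-A scaling the members' median at 72 h is 0.19.

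Of the cyclins and Cdk1, 4 of 5 were lower at 6 h, all 5 lower at 24 h and all 5 higher at 72 h. Cdk1, the kinase that drives entry into mitosis, read 13.20, 12.94 and 13.11 at 6 h, 12.55, 12.62 and 12.43 at 24 h and 12.78, 12.73 and 12.68 at 72 h in DMSO. In chlorothalonil it read 12.60, 12.52 and 12.63 at 6 h, 11.68, 11.68 and 11.83 at 24 h and 13.38, 13.40 and 13.44 at 72 h. The treated arrays lay below the DMSO arrays at 6 and 24 h and above every other array at 72 h. Chlorothalonil minus DMSO was -0.50 (SE 0.072, adjusted p = 2.61e-05) at 6 h, -0.80 (SE 0.072, adjusted p = 1.10e-07) at 24 h and 0.68 (SE 0.072, adjusted p = 1.10e-06) at 72 h. Ccna2, the cyclin A that serves both S phase and entry into mitosis, read 13.20, 13.37 and 13.22 at 6 h, 12.50, 12.70 and 12.73 at 24 h and 12.03, 11.90 and 11.95 at 72 h in DMSO and 12.38, 12.36 and 12.41 at 6 h, 12.20, 12.07 and 12.59 at 24 h and 12.87, 12.54 and 12.59 at 72 h in chlorothalonil. Its treated arrays were below the controls at 6 h, overlapped them at 24 h and were above them at 72 h, and its treated level did not change between 6 and 24 h beyond its spread (-0.096 (SE 0.12, adjusted p = 0.506)). The treatment change was -0.88 (SE 0.12, adjusted p = 1.24e-05) at 6 h, -0.35 (SE 0.12, adjusted p = 0.0138) at 24 h and 0.70 (SE 0.12, adjusted p = 9.27e-05) at 72 h. Its call at 24 h was lost without the first or second treated array or the third DMSO array of that time (adjusted p 0.0509 to 0.0822). The cyclin B genes were lower by different amounts: Ccnb1 changed by -1.25, -0.43 and 1.34 and Ccnb2 by -0.75, -0.94 and 0.62 at 6, 24 and 72 h. With poly-A scaling, Cdk1, Ccna2 and Ccnb1 were not called at 72 h and Ccnb2 was at -0.052.

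Cdkn3, a phosphatase that removes the activating phosphate from cyclin-dependent kinases, went its own way within this group. In DMSO it read 9.83, 9.89 and 9.81 at 6 h, 11.69, 11.72 and 11.69 at 24 h and 9.51, 9.56 and 9.61 at 72 h, and in chlorothalonil 10.04, 10.005 and 10.04 at 6 h, 9.59, 9.27 and 9.55 at 24 h and 11.82, 11.98 and 11.87 at 72 h. The controls rose by 1.86 from 6 to 24 h and then fell by 2.14, while treated cells were low at 24 h and at 72 h lay above the 24 h control level by 0.19. On the log2 scale, treated cells differed by 0.19 (SE 0.073, adjusted p = 0.039) at 6 h, -2.23 (SE 0.073, adjusted p = 2.83e-12) at 24 h and 2.33 (SE 0.073, adjusted p = 6.80e-12) at 72 h. These are a 4.69-fold lower level at 24 h and a 5.03-fold higher level at 72 h. The higher call at 6 h was lost without any 1 of the 3 treated arrays or without the first or the third DMSO array of that time (adjusted p 0.0636 to 0.103), and with poly-A scaling the change there was -0.43. The effect moved by -2.41 (SE 0.10, adjusted p = 2.52e-10) from 6 to 24 h and by 4.56 (SE 0.10, adjusted p = 1.81e-13) from 24 to 72 h.

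**Figure D4:**
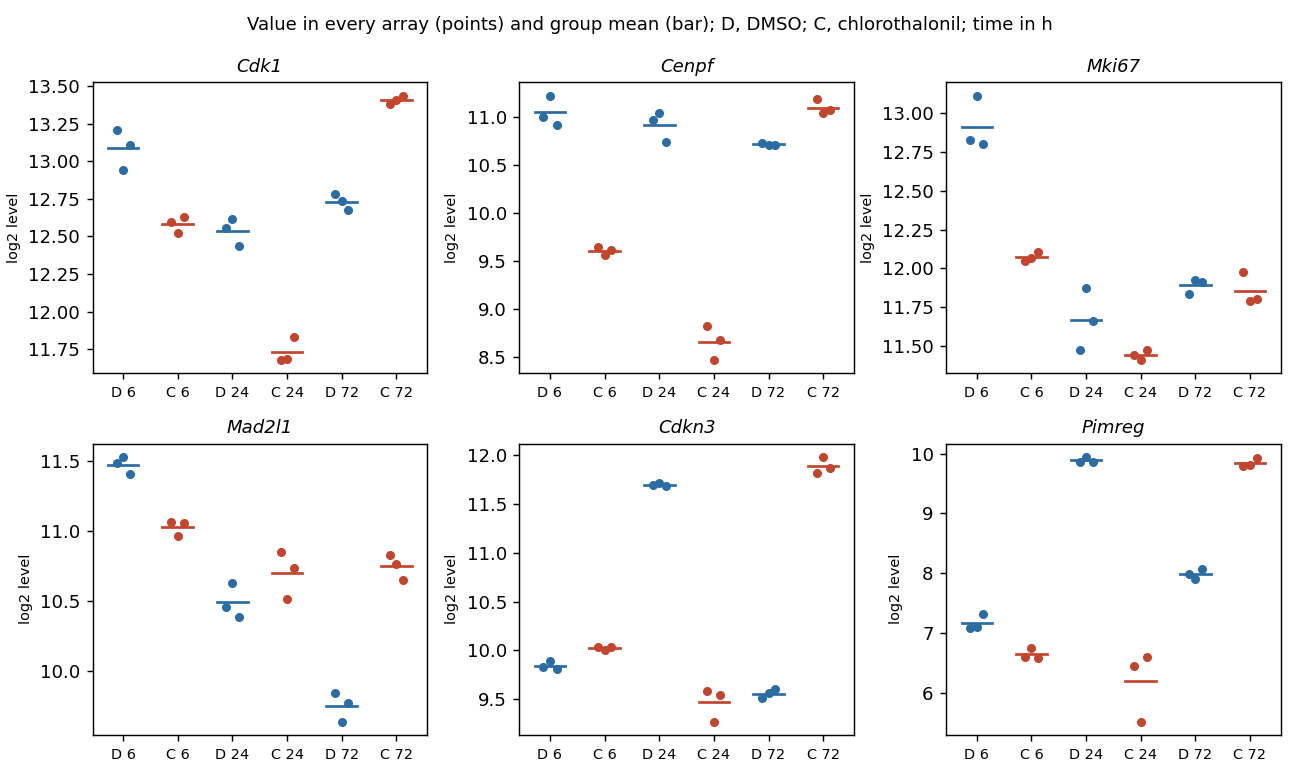
Log2 level of 6 mitosis genes in every array (points, 3 per group) with the group mean (bar), for DMSO (D, blue) and chlorothalonil (C, red) at 6, 24 and 72 h, each panel on its own scale. Cdkn3 and Pimreg peak in DMSO at 24 h and in chlorothalonil at 72 h, while Cenpf is lowest in chlorothalonil at 24 h.

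The 7 spindle and kinetochore genes were all lower at 6 h and all higher at 72 h, and 6 were lower at 24 h. Nusap1, which bundles and steadies spindle microtubules, read 10.74, 10.64 and 10.51 at 6 h, 10.73, 10.88 and 10.77 at 24 h and 10.64, 10.73 and 10.81 at 72 h in DMSO. Its treated arrays read 9.71, 9.86 and 9.92 at 6 h, 9.42, 9.21 and 9.31 at 24 h and 11.41, 11.47 and 11.52 at 72 h. DMSO levels were not called as changed from 6 to 24 h, 0.16 (SE 0.08, adjusted p = 0.0843), or from 24 to 72 h, -0.065 (SE 0.08, adjusted p = 0.497), and treated arrays never overlapped those of the same time. The corresponding log2 changes were -0.80 (SE 0.08, adjusted p = 6.29e-07) at 6 h, -1.48 (SE 0.08, adjusted p = 4.62e-10) at 24 h and 0.74 (SE 0.08, adjusted p = 1.20e-06) at 72 h. Cenpf, a large kinetochore protein made in late cell cycle, read 10.9999, 11.22 and 10.91 at 6 h, 10.97, 11.04 and 10.73 at 24 h and 10.72, 10.71 and 10.71 at 72 h in DMSO and 9.64, 9.56 and 9.61 at 6 h, 8.82, 8.46 and 8.67 at 24 h and 11.18, 11.03 and 11.06 at 72 h in chlorothalonil. Its controls were not called as changed over time either (-0.13 and -0.20), and its treated level fell by 0.95 from 6 to 24 h and rose by 2.44 from 24 to 72 h. Its treatment effect came to -1.44 (SE 0.099, adjusted p = 1.60e-08) at 6 h, -2.26 (SE 0.099, adjusted p = 5.26e-11) at 24 h and 0.38 (SE 0.099, adjusted p = 0.0035) at 72 h. The level was 2.71-fold lower at 6 h and 4.8-fold lower at 24 h, and with poly-A scaling the 72 h change was -0.29 and not called.

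Cenpe, the kinetochore motor that carries chromosomes to the plate, changed by -1.35, -1.60 and 0.42. Its 3 treated arrays at 24 h were almost equal (5.95 ± 0.0026, SD, n = 3), and its call at 72 h was lost without the second treated array or without the first or the third DMSO array of that time (adjusted p 0.0575 to 0.0651). Plk1, a kinase needed for spindle poles and mitotic exit, changed by -1.33, -0.75 and 0.91, and Kif2c, which takes microtubules apart at the centromere, by -0.96, -0.83 and 0.92. Kif11, the motor that pushes spindle poles apart, changed by -0.78, -0.81 and 0.61. Aurka, the spindle pole kinase, was lower at 6 h by 0.93 and higher at 72 h by 1.09, and at 24 h its change was -0.17 (SE 0.093, adjusted p = 0.125). Without the third DMSO array at 24 h it was called there (adjusted p = 0.0221). With poly-A scaling none of the 7 was called at 72 h, and Cenpe, Cenpf and Kif11 were below 0.

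All 4 checkpoint genes were lower at 6 h and higher at 72 h, and at 24 h 3 were lower and Mad2l1 was higher. Bub1, a kinase that gathers checkpoint proteins at kinetochores, read 11.53, 11.74 and 11.60 at 6 h, 10.74, 11.01 and 10.93 at 24 h and 10.44, 10.45 and 10.51 at 72 h in DMSO and 11.03, 10.98 and 11.01 at 6 h, 10.41, 10.18 and 10.50 at 24 h and 11.22, 11.32 and 11.17 at 72 h in chlorothalonil. The DMSO values stepped down with time, and the treated values fell to 24 h and were at 72 h above those of treated cells at 6 h. Chlorothalonil minus DMSO was -0.61 (SE 0.086, adjusted p = 2.10e-05) at 6 h, -0.53 (SE 0.086, adjusted p = 5.65e-05) at 24 h and 0.77 (SE 0.086, adjusted p = 1.73e-06) at 72 h. Mad2l1, the inhibitor that binds Cdc20, read 11.49, 11.53 and 11.40 at 6 h, 10.46, 10.63 and 10.39 at 24 h and 9.85, 9.64 and 9.77 at 72 h in DMSO. In chlorothalonil its arrays read 11.06, 10.96 and 11.06 at 6 h, 10.85, 10.52 and 10.74 at 24 h and 10.83, 10.76 and 10.65 at 72 h. The treated level was not called as changed from 24 to 72 h, 0.046 (SE 0.089, adjusted p = 0.654), while their controls went on falling, by 0.74 in that interval. The treatment change was -0.44 (SE 0.089, adjusted p = 0.00054) at 6 h, 0.21 (SE 0.089, adjusted p = 0.0461) at 24 h and 0.99 (SE 0.089, adjusted p = 1.73e-07) at 72 h. The arrays overlapped at 24 h, and the higher call there was lost in 11 of the 18 fits that left out 1 array, among them those without the first or the third array of either group at that time (adjusted p 0.0508 to 0.21 over the 11), and with poly-A scaling it was -0.86. Bub1b changed by -1.04, -0.70 and 0.68, and Ttk, the kinase Mps1, by -0.76, -0.21 and 1.07, its 24 h call lost in 12 of the 18 fits, among them those without the first or second treated array or the second or the third DMSO array of that time (adjusted p 0.0509 to 0.226). With poly-A scaling none of the 4 was called at 72 h.

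The chromosomal passenger complex, which corrects faulty attachments and later moves to the central spindle, had no member called lower at 24 h, although with poly-A scaling all 3 were. At 6 h 2 of its 3 genes were lower and at 72 h all 3 were higher. Aurkb, its kinase, read 11.42, 11.51 and 11.50 at 6 h, 10.44, 10.66 and 10.48 at 24 h and 9.97, 10.04 and 10.08 at 72 h in DMSO and 11.07, 10.96 and 11.07 at 6 h, 10.60, 10.13 and 10.34 at 24 h and 11.26, 10.90 and 10.98 at 72 h in chlorothalonil. The groups were separate at 6 and 72 h and overlapped at 24 h. On the log2 scale, treated cells differed by -0.44 (SE 0.11, adjusted p = 0.00244) at 6 h, -0.17 (SE 0.11, adjusted p = 0.165) at 24 h and 1.02 (SE 0.11, adjusted p = 1.10e-06) at 72 h. It was called lower at 24 h without the first treated array of that time (adjusted p = 0.0202). Birc5, the survivin subunit that carries the complex to centromeres, read 9.94, 10.18 and 9.90 at 6 h, 9.28, 9.61 and 9.17 at 24 h and 9.23, 9.28 and 9.30 at 72 h in DMSO and 9.62, 9.97 and 9.64 at 6 h, 9.33, 8.81 and 9.46 at 24 h and 9.78, 9.97 and 10.01 at 72 h in chlorothalonil. Its arrays overlapped at 6 and 24 h and were apart at 72 h. The corresponding log2 changes were -0.26 (SE 0.16, adjusted p = 0.159) at 6 h, -0.15 (SE 0.16, adjusted p = 0.392) at 24 h and 0.65 (SE 0.16, adjusted p = 0.002) at 72 h. Cdca8, the borealin subunit, read 10.25, 10.20 and 10.12 at 6 h, 8.53, 8.73 and 8.27 at 24 h and 7.94, 8.29 and 7.99 at 72 h in DMSO. Its treated arrays read 9.47, 9.56 and 9.52 at 6 h, 8.98, 8.57 and 8.90 at 24 h and 9.57, 9.73 and 9.64 at 72 h. The DMSO level dropped by 1.68 from 6 to 24 h, more than the treated level (0.70), and the effect changed sign between those times. Its treatment effect came to -0.67 (SE 0.12, adjusted p = 0.000248) at 6 h, 0.31 (SE 0.12, adjusted p = 0.0353) at 24 h and 1.58 (SE 0.12, adjusted p = 3.91e-08) at 72 h. The call at 24 h was lost without the first or the third array of either group at that time (adjusted p 0.0599 to 0.187), and with poly-A scaling the change there was -0.77 and at 72 h it was still called higher (0.91), while Aurkb and Birc5 were not called at 72 h.

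Of the 4 genes around the anaphase promoting complex, 3 were lower at 6 h, 4 lower at 24 h and 3 higher at 72 h. Pttg1, securin, which holds back separase until anaphase, read 11.63, 11.62 and 11.60 at 6 h, 11.32, 11.34 and 11.16 at 24 h and 10.79, 10.86 and 10.88 at 72 h in DMSO and 10.95, 11.02 and 11.21 at 6 h, 10.93, 10.60 and 10.74 at 24 h and 11.91, 12.18 and 12.22 at 72 h in chlorothalonil. The controls stepped down at each time, and the treated arrays at 72 h were the highest of the 18. Chlorothalonil minus DMSO was -0.56 (SE 0.095, adjusted p = 0.000138) at 6 h, -0.52 (SE 0.095, adjusted p = 0.000185) at 24 h and 1.26 (SE 0.095, adjusted p = 3.03e-08) at 72 h. Ube2c, the ubiquitin carrier of the complex, read 11.55, 11.38 and 11.51 at 6 h, 10.80, 10.90 and 10.65 at 24 h and 10.52, 10.60 and 10.59 at 72 h in DMSO. In chlorothalonil it read 11.32, 11.32 and 11.39 at 6 h, 10.63, 10.41 and 10.56 at 24 h and 11.49, 11.60 and 11.63 at 72 h. Treated and control arrays overlapped at 6 h and were apart at 24 and 72 h. The treatment change was -0.13 (SE 0.076, adjusted p = 0.146) at 6 h, -0.25 (SE 0.076, adjusted p = 0.00875) at 24 h and 1.002 (SE 0.076, adjusted p = 3.02e-08) at 72 h. Its call at 24 h was lost without the second treated array (adjusted p = 0.0518). Cdc20, the activator that the checkpoint restrains, changed by -0.92, -1.07 and 0.91. Cdca3, which promotes entry into mitosis, was lower by 0.67 and 0.84 at 6 and 24 h, with 0.12 (SE 0.078, adjusted p = 0.193) at 72 h. With poly-A scaling none of the 4 was called at 72 h.

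The 5 cytokinesis genes were all lower at 6 h, 4 were lower at 24 h and all were higher at 72 h. Ect2, the exchange factor that activates RhoA at the furrow, read 12.90, 13.06 and 12.96 at 6 h, 12.40, 12.63 and 12.34 at 24 h and 12.04, 12.03 and 12.20 at 72 h in DMSO and 12.47, 12.54 and 12.47 at 6 h, 12.02, 11.87 and 12.08 at 24 h and 13.02, 12.99 and 13.01 at 72 h in chlorothalonil. Its treated arrays at 72 h lay within the range of the DMSO arrays at 6 h. On the log2 scale, treated cells differed by -0.48 (SE 0.08, adjusted p = 0.00011) at 6 h, -0.46 (SE 0.08, adjusted p = 9.81e-05) at 24 h and 0.92 (SE 0.08, adjusted p = 1.29e-07) at 72 h. Kif23, a motor of the centralspindlin complex, read 12.49, 12.59 and 12.59 at 6 h, 11.40, 11.57 and 11.40 at 24 h and 11.73, 11.70 and 11.91 at 72 h in DMSO. Its treated arrays read 11.996, 11.88 and 11.91 at 6 h, 11.62, 11.19 and 11.52 at 24 h and 12.24, 12.11 and 12.19 at 72 h. The 24 h groups overlapped, and the controls rose by 0.32 from 24 to 72 h, the only one of the 5 genes called so, although its further probe set gave -2.13 (adjusted p = 0.00252) and the mean of its probe sets -0.90 for that step. The corresponding log2 changes were -0.63 (SE 0.096, adjusted p = 4.56e-05) at 6 h, -0.012 (SE 0.096, adjusted p = 0.922) at 24 h and 0.40 (SE 0.096, adjusted p = 0.00175) at 72 h. Racgap1, the partner of Kif23, changed by -0.92, -0.45 and 0.58, and Kif20a, which brings the passenger complex to the central spindle, by -0.69, -0.83 and 0.69. Prc1, which crosslinks the microtubules between the separating chromosomes, changed by -0.44, -0.36 and 1.13, the highest value of the 5 at 72 h. With poly-A scaling none was called at 72 h, with Kif23 at -0.27 and Racgap1 at -0.092.

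Mki67 and Top2a, often used as markers of growing cells, parted at 72 h. Mki67, which coats mitotic chromosomes, read 12.83, 13.12 and 12.80 at 6 h, 11.48, 11.87 and 11.66 at 24 h and 11.84, 11.93 and 11.91 at 72 h in DMSO and 12.05, 12.07 and 12.11 at 6 h, 11.44, 11.41 and 11.47 at 24 h and 11.98, 11.79 and 11.80 at 72 h in chlorothalonil. Its controls had fallen by 1.25 at 24 h and treated arrays overlapped them at 72 h. Its treatment effect came to -0.84 (SE 0.096, adjusted p = 2.66e-06) at 6 h, -0.23 (SE 0.096, adjusted p = 0.0448) at 24 h and -0.035 (SE 0.096, adjusted p = 0.772) at 72 h. The 24 h call was lost in 13 of the 18 fits that left out 1 array, among them those without any 1 of the treated arrays or the second or the third DMSO array of that time (adjusted p 0.0503 to 0.24). Top2a, the topoisomerase that untangles sister chromatids, read 11.72, 11.86 and 11.71 at 6 h, 10.94, 11.14 and 10.82 at 24 h and 11.04, 11.20 and 11.004 at 72 h in DMSO. In chlorothalonil its values were 10.51, 10.51 and 10.59 at 6 h, 9.39, 9.29 and 9.59 at 24 h and 11.51, 11.54 and 11.44 at 72 h. Treated and DMSO arrays were separate at every time, lower by most at 24 h. Chlorothalonil minus DMSO was -1.22 (SE 0.09, adjusted p = 3.31e-08) at 6 h, -1.55 (SE 0.09, adjusted p = 9.68e-10) at 24 h and 0.42 (SE 0.09, adjusted p = 0.000884) at 72 h. Mki67 was the only member whose treatment effect was not called as changed between 24 and 72 h, and that of Top2a moved by 1.96 (SE 0.13, adjusted p = 1.29e-08), a difference between the 2 genes that was not itself tested. With poly-A scaling neither was called at 72 h, and Top2a was at -0.26.

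Among the remaining genes, Pbk, a kinase active in mitosis, read 10.68, 10.69 and 10.66 at 6 h, 10.10, 10.16 and 10.08 at 24 h and 10.04, 9.93 and 10.12 at 72 h in DMSO and 10.34, 10.39 and 10.39 at 6 h, 9.65, 9.41 and 9.71 at 24 h and 10.91, 10.91 and 10.86 at 72 h in chlorothalonil. Its groups did not overlap at any time. The treatment change was -0.31 (SE 0.071, adjusted p = 0.0017) at 6 h, -0.52 (SE 0.071, adjusted p = 9.82e-06) at 24 h and 0.86 (SE 0.071, adjusted p = 7.41e-08) at 72 h. Pimreg, a protein of dividing cells also called Fam64a, also rose and fell in DMSO, as Cdkn3 did, but was lower at 6 h. It read 7.07, 7.10 and 7.31 at 6 h, 9.87, 9.95 and 9.86 at 24 h and 7.98, 7.90 and 8.08 at 72 h in DMSO. In chlorothalonil it read 6.60, 6.75 and 6.59 at 6 h, 6.45, 5.51 and 6.60 at 24 h and 9.79, 9.81 and 9.93 at 72 h. The controls peaked at 24 h, where treated cells were 13-fold lower, and treated cells reached that control level at 72 h (chlorothalonil at 72 h minus DMSO at 24 h, -0.048 (SE 0.19, adjusted p = 0.846)). On the log2 scale, treated cells differed by -0.52 (SE 0.19, adjusted p = 0.0291) at 6 h, -3.70 (SE 0.19, adjusted p = 3.01e-10) at 24 h and 1.86 (SE 0.19, adjusted p = 7.34e-07) at 72 h. Its 6 h call was lost without the first or the third treated array or the third DMSO array of that time (adjusted p 0.0709 to 0.0946). Depdc1b, linked to the rounding of cells at mitosis, had group means of 6.87 ± 0.43, 4.59 ± 0.39 and 4.68 ± 0.59 in DMSO and 4.53 ± 0.52, 4.04 ± 0.23 and 6.82 ± 0.18 in chlorothalonil (SD, n = 3). Only 1 of its treated arrays at 24 h was above log2 4, so its values there are near background. The corresponding log2 changes were -2.34 (SE 0.31, adjusted p = 1.16e-05) at 6 h, -0.56 (SE 0.31, adjusted p = 0.121) at 24 h and 2.15 (SE 0.31, adjusted p = 2.31e-05) at 72 h. With poly-A scaling Pimreg and Depdc1b were still higher at 72 h (1.18 and 1.48), and Pbk was not called.

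Further probe sets, 13 in all, were present for 10 members, and those of 4 members, Kif2c, Ccnb1, Top2a and Nusap1, gave the treatment calls of the brightest set at all 3 times. In the other 6 at least 1 call was missing or added, and none of the 13 was called in the opposite direction for treatment at the same time. The further probe set of Kif11 changed by -1.01, -0.063 and 1.32 at 6, 24 and 72 h, with an adjusted p of 0.764 at 24 h, where the brightest set was at -0.81. The further set of Racgap1 was at -0.11 at 24 h (adjusted p = 0.387), and the dimmest set of Cdc20 was not called there (-0.63, adjusted p = 0.145). Neither further set of Mad2l1 was called at 24 h (0.24 and 0.22, adjusted p = 0.267 and 0.178), and 1 was not called at 6 h (-0.26, adjusted p = 0.121). The further set of Kif23 was called at no time (-0.32, -0.63 and 0.44, adjusted p = 0.632, 0.305 and 0.493), and that of Ttk gave -0.27 (adjusted p = 0.565), -0.92 (adjusted p = 0.0404) and 1.97 (adjusted p = 0.000325). Over time these 2 sets had values of the other sign. From 24 to 72 h in chlorothalonil they gave -1.06 (Kif23, adjusted p = 0.082) and -0.82 (Ttk, adjusted p = 0.0623), where the brightest sets rose by 0.74 and 1.19, and from 24 to 72 h in DMSO the set of Ttk gave -3.71 (adjusted p = 8.92e-07). For chlorothalonil at 72 h against DMSO at 24 h they were lower (-1.69, adjusted p = 0.0114 for Kif23 and -1.74, adjusted p = 0.000953 for Ttk), where the brightest sets were higher (0.73 and 0.97). The time course of Kif23 and Ttk therefore rests on the probe set chosen.

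A wider list of 95 mitosis genes, of which 78 passed the filter, moved in the same directions with more exceptions. At 6 h 47 (60.3%) were lower and 10 (12.8%) higher, where 31.8% and 27.8% of all genes were. At 24 h 43 (55.1%) and 18 (23.1%) were, against 31.1% and 39.1%, and at 72 h 2 (2.56%) and 65 (83.3%), against 27.0% and 37.2% (medians -0.47, -0.33 and 0.75). Kif14, a cytokinesis motor, read 7.73, 7.64 and 7.69 in DMSO and 5.67, 5.40 and 5.04 in chlorothalonil at 6 h, -2.32 (SE 0.19, adjusted p = 8.69e-08). Ccnf (-1.83) and Espl1, separase (-1.56), followed at 6 h, when Anapc13 (0.57), Zwint (0.50) and Zwilch (0.43) were higher. Cit, the citron kinase of the cleavage furrow, had the lowest change at 24 h, with DMSO at 9.80, 9.85 and 9.50 and chlorothalonil at 6.79, 6.18 and 6.68, -3.17 (SE 0.17, adjusted p = 3.73e-10). Iqgap3 (-1.76) and Kif14 (-1.60) had lower values too, with 1 and 2 of their 3 treated arrays above log2 4, so both changes are set against a group near background. The highest change at 24 h was that of Zwint, a kinetochore protein, which read 12.07, 12.24 and 11.95 in DMSO and 13.66, 13.85 and 13.50 in chlorothalonil, 1.58 (SE 0.10, adjusted p = 2.67e-09), with Cenpn (1.39) and Cenpk (1.34) also higher. Other kinetochore genes of the list went both ways at 24 h, and the examples here were picked after their values were seen. Lower were Knl1 (-1.55), Cenpw (-0.997), Spc24 (-0.79) and Nuf2 (-0.45). Treated arrays lay above DMSO arrays for Dsn1 (means 8.02 and 7.29), Pmf1 (9.14 and 8.44), Cenpp (8.97 and 8.41) and Cenpu (8.80 and 8.30). At 72 h Gtse1 (1.995), Cenpm (1.90) and Spc24 (1.80) were the highest, and the 2 lower genes were Anapc1 (-0.35) and Ska2 (-0.33). With poly-A scaling the counts at 72 h were 4 lower and 12 higher, when 37.9% of all genes were called lower and 3.41% higher. At 24 h they were 63 lower and none higher, when 68.5% of all genes were called lower. Cenpa and Cdca5 were not well above background in several groups, so no fold is given for them.

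Of 26 known regulators of these genes, 24 passed the filter. At 6 h 15 (62.5%) were lower and 2 (8.33%) higher, against 31.8% and 27.8% of all genes. At 24 h 10 (41.7%) and 11 (45.8%) were, against 31.1% and 39.1%, and at 72 h 5 (20.8%) and 11 (45.8%), against 27.0% and 37.2%, which lie near the shares of all genes. Foxm1, an activator of late cell cycle genes, had the order of the members, reading 9.03, 8.72 and 9.08 in DMSO and 7.99, 7.90 and 7.93 in chlorothalonil at 6 h, with changes of -1.002, -0.46 and 0.82, all called. Mybl2, the B-Myb partner of that program, did not: 0.12 (SE 0.27, adjusted p = 0.71) at 6 h, then 1.68 (SE 0.27, adjusted p = 4.29e-05) at 24 h and 2.25 (SE 0.27, adjusted p = 3.03e-06) at 72 h. Rbl2, the p130 protein of the DREAM complex, was lower at all 3 times, by 2.05, 0.85 and 0.65 on the log2 scale. Its arrays at 6 h read 8.20, 8.05 and 8.35 in DMSO and 6.38, 6.07 and 5.98 in chlorothalonil. Cdkn1b, the Cdk inhibitor p27, was also lower throughout (-0.97, -0.70 and -0.61), and Cdkn1a, the inhibitor p21, was higher throughout (0.52, 0.94 and 1.27). With poly-A scaling 16 regulators were lower and none higher at 6 h, 17 and none at 24 h, and 7 and 2 at 72 h. On that scale Cdkn1a was therefore not called higher at 6 or 24 h, nor Mybl2 at 24 h. Of all genes, 39.2%, 68.5% and 37.9% were called lower on that scale at the 3 times, and 2.54%, 2.8% and 3.41% higher. The regulators' share called lower was near that of all genes at 24 h and below it at 72 h.

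Genes of DNA replication, which precede mitosis in the cycle, were counted on the same arrays, and 48 of 51 listed passed the filter. At 6 h 8 (16.7%) were lower and 7 (14.6%) higher, both below the shares of all genes (31.8% and 27.8%). At 24 h 7 (14.6%) were lower and 31 (64.6%) higher, against 31.1% and 39.1%, and at 72 h 1 (2.08%) was lower and 38 (79.2%) higher, against 27.0% and 37.2% (medians -0.11, 0.51 and 0.61). Their controls fell as those of the mitosis genes did, with 43 lower and 1 higher at 24 h against 6 h in DMSO (40.0% and 32.9% of all genes). They also fell in chlorothalonil, with 44 lower and none higher over that step (24.9% and 34.6% of all genes). The median fall was -1.45 in DMSO and -0.80 in chlorothalonil. From 24 to 72 h in chlorothalonil 14 were lower and 18 higher (33.3% and 39.5% of all genes). Mcm5, a subunit of the replicative helicase, changed by -0.24 (not called), 0.51 and 1.03, and Pcna, the sliding clamp, by -0.12 (not called), 0.61 and 0.42. At 24 h, then, 26 of 33 mitosis genes were called lower while 31 of 48 replication genes were called higher on the same arrays, and the difference between the 2 lists was not tested as such. Both counts of replication genes higher than in DMSO depend on the scaling. With poly-A scaling 19 were lower and none higher at 24 h, when 68.5% of all genes were called lower and 2.8% higher. At 72 h on that scale 4 were lower and 1 higher, against 37.9% and 3.41% of all genes, and 4 of the 33 mitosis genes were higher. The share called lower was thus below that of all genes at both times.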

How the data were processed

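RNA of 18 samples of NRK-52E cells was measured on Affymetrix rat arrays with 31099 probe sets. The deposited log2 values come from GCRMA according to the submitters' processing notes, with no version or annotation stated. From GEO's platform annotation 20832 probe sets had 1 gene symbol, 436 several and 9831 none, and 20764 symbols were updated through RefSeq gene tables by Entrez number. Probe sets with log2 above 4 in at least 3 arrays were kept (16686 with 1 symbol), and the brightest per gene was used.

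A mean per group was fitted across 9149 genes with limma 3.58.1 (R 4.3.3, lmFit and eBayes, two-sided, 12 residual degrees of freedom), for 11 comparisons, with Benjamini-Hochberg adjustment within each and a threshold of 0.05. The step was tested on simulated data. With 3 arrays a group, the number of arrays limits the precision. Each group's 3 arrays carry biological replicate numbers, from separate studies per the labels' protocols.

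The members and lists were chosen with earlier results of these data known. Array values are given for the 2 members with the highest mean in each sub-function and for members called against most others. Of the wider list, the 3 lowest and the 3 highest called changes whose arrays did not overlap are named. Other scalings, filters, designs and fits without 1 array were tried.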

Additional observations from a re-analysis of the deposited data

Results flagged for a closer look

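The treatment effect differed between times, by a test of the difference itself, in 18 of the 33 mitosis genes between 6 and 24 h and in 32 between 24 and 72 h (limma, adjusted p below 0.05). Of all genes, 23.4% moved down and 39.6% up between 6 and 24 h, so the 18 are not above the share of all genes. Between 24 and 72 h, 29.8% of all genes moved down and 27.9% up. Called lower at 24 h and higher at 72 h, with the difference called, were 24 members. Between 6 and 24 h the effect moved by -2.41 (log2) in Cdkn3, from higher to lower, and by 0.66 in Mad2l1 and 0.98 in Cdca8, from lower to higher.

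The poly-A control probe sets, which are not used in the comparisons as deposited, were brighter in treated than in DMSO arrays by 0.62, 1.07 and 0.67 (log2) at 6, 24 and 72 h.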

How the results depend on the processing

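Most counts of called members stayed within 1.5 times under a filter at log2 6, no filter, quantile normalization, the mean of probe sets, fits of only the groups compared, array weights and trended, robust priors. Scaling on the poly-A controls moved 6 of them: 4 members were called for treatment at 72 h, 14 for DMSO at 24 against 6 h, 7 for DMSO at 72 against 24 h, 17 for chlorothalonil at 24 against 6 h, 4 for the difference of effects between 6 and 24 h (3 down, 1 up) and 7 for chlorothalonil at 72 h against DMSO at 24 h (6 lower, when 51% of all genes were). Without the DMSO array at 24 h with dim poly-A controls, a setting chosen after seeing the data, these were 9 at 72 h, 4 for DMSO at 72 against 24 h, 5 (3 down, 2 up) and 4. Median centring gave 22 for the difference between 6 and 24 h (12 down, 10 up). The cause of these shifts was not tested.

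Leaving out 1 array gave 29 to 31 called members at 6 h, 24 to 28 at 24 h and 30 to 31 at 72 h. The ranges were 31 to 32 and 18 to 22 for DMSO from 6 to 24 and from 24 to 72 h, 28 to 32 and 31 to 32 for chlorothalonil, 17 to 19 and 32 to 32 for the differences of effects, and 33 to 33 and 23 to 27 for the comparisons across treatment and time.

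With poly-A scaling the 72 h change turned below 0 in Birc5 (-0.024), Ccnb2 (-0.052), Kif11 (-0.062), Racgap1 (-0.092), Cenpe (-0.25), Top2a (-0.26), Kif23 (-0.27) and Cenpf (-0.29), with and without that array. The 24 h change of Cdca8 was -0.77 (-0.35 without it), that of Mad2l1 -0.86 (-0.47 without it), and the 6 h change of Cdkn3 was -0.43. Cdk1 from 24 to 72 h in DMSO was -0.027, and the difference of effects of Bub1b between 6 and 24 h -0.11. The mean of probe sets gave Kif23 -0.90 (DMSO) and -0.16 (chlorothalonil) from 24 to 72 h, and Ttk -0.053 for the difference between 6 and 24 h.

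Arrays of the same replicate number at the same time deviated together weakly at most (correlations of -0.044 to 0.305 over 9 pairs). The numbers were not taken as pairs in the main fit, and whether they share a study was not tested. With the replicate block, 30 members were called at 6 h, 28 at 24 h and 31 at 72 h. The call of Cdkn3 at 6 h was lost under it (0.19, adjusted p = 0.0564). Signal near background limits Depdc1b.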
